A study of Mus musculus with 8 samples.

Results

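Matricellular proteins are secreted into the extracellular matrix, where they bind cells, growth factors and structural fibres without forming the scaffold themselves. The 10 genes described here were chosen by symbol from 55487 gene identifiers measured in the heart. They are Postn (periostin), Cthrc1, the thrombospondins Thbs1, Thbs2, Thbs3 and Thbs4, Tnc (tenascin C), Spp1 (osteopontin), Sparc and Ccn2 (also known as Ctgf). Earlier results of these data were known when the list was chosen. Each symbol matched 1 identifier. All 10 passed the filter on low counts and are among the 17636 genes tested.

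RNA of mouse hearts was sequenced in 8 libraries, 2 in each of 4 groups. The groups are Set7KO hearts after isoproterenol, Set7KO hearts after saline, WT hearts after isoproterenol and WT hearts after saline. Isoproterenol, an agonist of beta-adrenergic receptors, was injected under the skin at 60 mg/kg over 14 days, and the saline groups had the same 14 days of treatment. Set7KO mice lack the lysine methyltransferase Set7 (gene Setd7) in the whole body and come from crosses of heterozygous animals, so fibroblasts, muscle and blood cells are all without it. The sources used here name no strain, age, sex or region of the heart. Nothing in the labels says that the libraries of a group come from separate animals, and the p-values then measure only the spread between these libraries.

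In the adult heart these proteins are made mainly by fibroblasts, smooth muscle and endothelial cells, with contributions from macrophages and platelets. Many are kept low in healthy tissue and return after injury, pressure overload or long adrenergic stimulation. They then steer fibroblast activation, release latent transforming growth factor beta and shape collagen fibres.

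Total counts ran between 27847069 and 51705705 per library. Levels are given as CPM, counts scaled to the library size after normalisation by the trimmed mean of M values (TMM). Setd7 had 3.79 to 5.70 CPM in the 4 Set7KO libraries, against 43.0 to 72.6 CPM in the 4 WT libraries, as the labels have it. Set7KO saline replicate 2 stood apart. Its Pearson correlation with replicate 1 over log2 CPM was 0.959, against 0.980 to 0.991 in the other groups, and its title carries the letter C of the WT saline titles where replicate 1 has B. The sources used here do not explain these letters. The values that leaving it out moved most are given with and without it.

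Per kilobase of exon, Sparc dominated the group. Sparc, a collagen-binding glycoprotein, averaged 127.4 CPM per kilobase over the 8 libraries and made up 78.8% of the summed level of the 10 genes. Ccn2, a modular protein known as a target of transforming growth factor beta and Yap, followed at 19.6 CPM per kilobase, or 12.9% of the sum. Thbs2 averaged 4.36, Thbs4 3.02, Thbs3 2.36, Postn 1.43 and Thbs1 1.17 CPM per kilobase. Tnc, Cthrc1 and Spp1 closed the order at 0.188, 0.151 and 0.131 CPM per kilobase. The ranges of neighbours over libraries overlapped from Thbs2 down to Thbs1 and again among Tnc, Cthrc1 and Spp1, so the order inside those runs does not exceed the spread. Sparc at its lowest, 56.0 CPM per kilobase, was above Ccn2 at its highest, 31.5 CPM per kilobase.

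**Figure D1:**
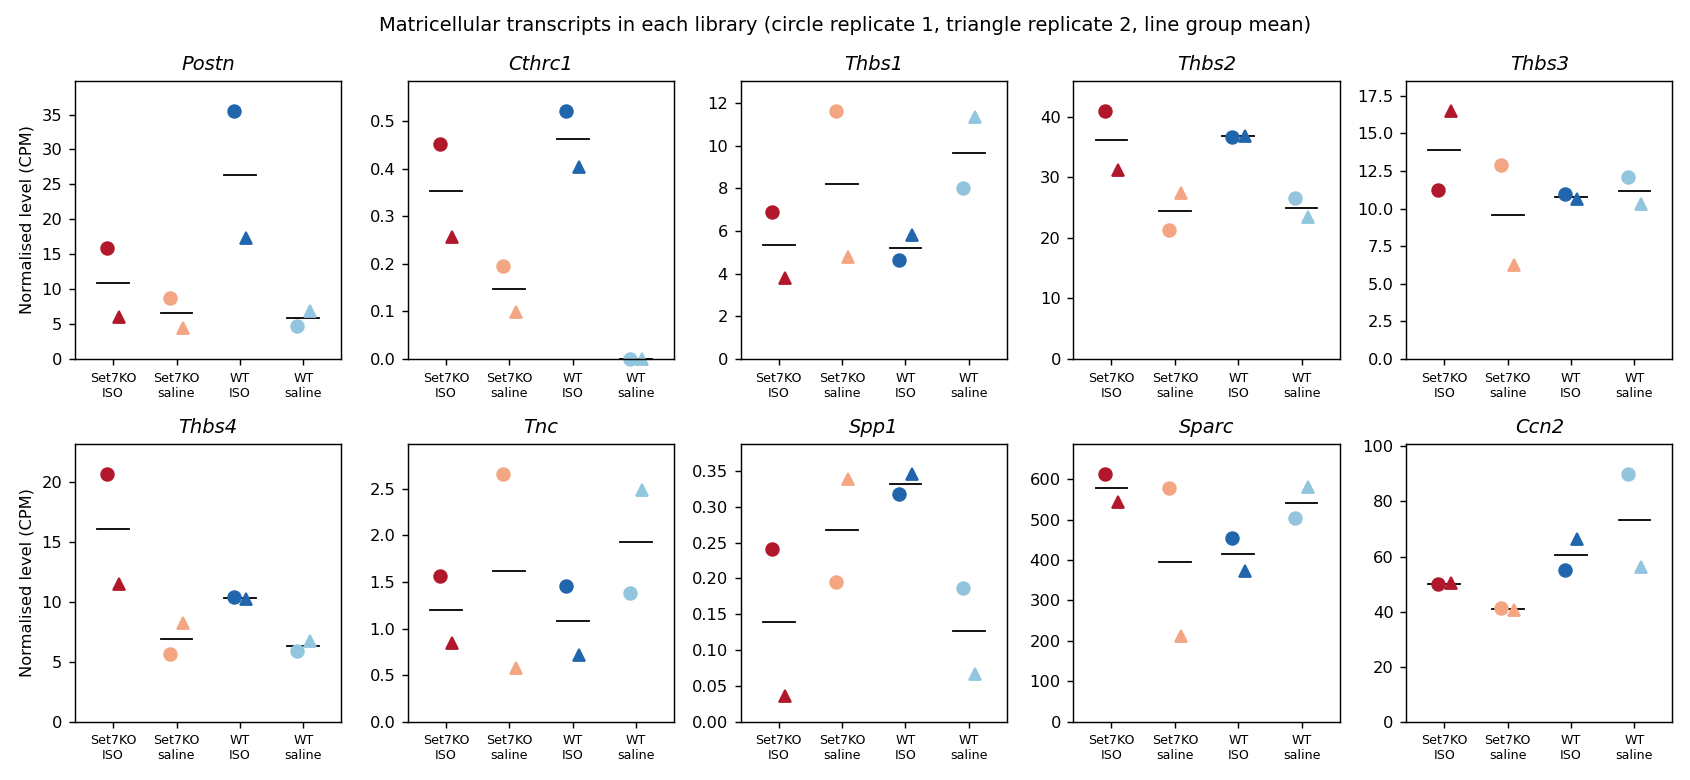
Normalised level in CPM (vertical axes, each starting at 0) of the 10 matricellular genes in the 8 libraries, by group, with a circle for replicate 1, a triangle for replicate 2 and a line at the group mean. All 4 isoproterenol libraries sit above all 4 saline libraries for Cthrc1, Thbs2 and Thbs4, and Sparc and Thbs3 have their lowest point in Set7KO saline replicate 2.

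After isoproterenol, averaged over both genotypes, Postn, Cthrc1, Thbs2 and Thbs4 had fitted levels above saline, Thbs1 had a level below it, and Sparc and Ccn2 lay close to it. None of the 10 genes passed the threshold, an adjusted p of 0.05 (edgeR quasi-likelihood F-test, Benjamini-Hochberg over all 17636 genes), where 9 genes in the whole table, 0.051%, did. With no adjustment, at p under 0.05, 4 of the 10 were higher and 1 was lower, against 4.5% and 4.9% of all genes tested. The 4 isoproterenol libraries lay above the 4 saline libraries without overlap for 3 genes, Cthrc1, Thbs2 and Thbs4, where 2.11% of all genes did so. For 0 of the 10 genes did they lie below without overlap, against 2.01% of all genes. The median log2 fold change of the 10 genes was 0.24, beside 0.02 for all genes tested. Cthrc1 passed the filter on low counts only through its isoproterenol libraries, so its place in these counts was partly set by that filter.

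Within each genotype the picture was less even. In WT hearts 3 genes, Postn, Cthrc1 and Thbs2, were higher and 0 were lower at that unadjusted level, in a comparison where 18.5% of all genes were higher and 13.3% lower. The place of Cthrc1 in the WT count too was partly set by the filter on low counts. In Set7KO hearts 2 genes, Thbs2 and Thbs4, were higher and 0 lower, where 3.65% of all genes were higher and 6.01% lower. By the adjusted p of edgeR's test the share of all genes called was 0% in WT and 0% in Set7KO hearts, and 0 of the 10 genes passed. The median log2 fold change of the 10 genes was 0.55 in Set7KO hearts, beside -0.04 for all genes, and 0.25 in WT hearts, beside 0.06. The 2 comparisons have separate saline libraries but share 1 estimate of the spread.

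Periostin binds collagen and integrins and is the best known marker of fibroblasts activated in the injured heart. Its gene (ENSMUSG00000027750) lies on the plus strand at chr3:54361109-54391037 in GRCm38. The 250 bases before its RefSeq start (GRCm38.p6, chr3:54360857-54361106, plus strand) are shown with those of Thbs2 (chr17:14694263-14694512, minus strand) and Thbs4 (chr13:92794819-92795068, minus strand), since these 3 genes had the smallest p-values after isoproterenol among those matched in the RefSeq promoter table. Capitals mark TATAAA in Postn, its reverse complement in Thbs2, and a pair of overlapping reverse complements of the TEAD motif GGAATG in Thbs4.
Postn: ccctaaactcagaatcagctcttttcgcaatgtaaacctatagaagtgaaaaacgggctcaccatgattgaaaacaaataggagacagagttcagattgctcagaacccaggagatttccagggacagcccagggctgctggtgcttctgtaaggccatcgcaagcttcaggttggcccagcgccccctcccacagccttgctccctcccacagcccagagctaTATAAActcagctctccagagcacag
Thbs2: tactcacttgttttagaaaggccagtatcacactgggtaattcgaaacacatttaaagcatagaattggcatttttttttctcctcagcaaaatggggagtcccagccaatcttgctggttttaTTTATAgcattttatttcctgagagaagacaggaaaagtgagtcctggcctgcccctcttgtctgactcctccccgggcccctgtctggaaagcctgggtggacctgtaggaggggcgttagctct
Thbs4: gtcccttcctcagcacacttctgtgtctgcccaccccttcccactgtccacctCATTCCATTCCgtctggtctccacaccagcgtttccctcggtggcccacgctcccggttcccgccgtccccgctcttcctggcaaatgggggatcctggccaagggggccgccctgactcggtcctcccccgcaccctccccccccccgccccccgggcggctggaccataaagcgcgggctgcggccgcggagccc
The promoter table held 7 of the 10 genes, and Ccn2, Cthrc1 and Thbs1 were not among them. Both strands were searched for the TATA box as TATAAA, for the TEAD motif as GGAATG, for the AP-1 motif as TGANTCA and for the CArG box of serum response factor. In Postn the TATAAA match lies 26 to 21 bases before the start, and in Thbs2 it lies 126 to 121 bases before it. In Thbs4 the GGAATG matches lie 197 to 192 and 192 to 187 bases before the start, sharing 1 base. TATAAA was found in 12.4% and GGAATG in 12.6% of all 32851 promoter windows of that length, TGANTCA in 6.7% and the CArG box in 1.5%. None of the 3 windows held TGANTCA or a CArG box. The Thbs4 window was rich in GC, at 70.8% with 19 CG dinucleotides, while Postn had 52% and Thbs2 46.8%, beside a median of 52.4% over all windows.

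Postn had 15.8 and 5.96 CPM in Set7KO isoproterenol hearts, against 8.68 and 4.47 CPM in Set7KO saline hearts. In WT it had 35.5 and 17.3 CPM after isoproterenol, against 4.74 and 6.93 CPM after saline. Both WT isoproterenol hearts were above every other library, and the Set7KO groups overlapped. Over both genotypes Postn averaged 18.7 ± 12.3 CPM after isoproterenol and 6.20 ± 1.98 CPM after saline (SD, n = 4 each). The averaged log2 fold change was 1.46 ± 0.39 (SE), or 2.75-fold, with an edgeR adjusted p of 0.284. It was 2.18 ± 0.57 in WT hearts (edgeR adjusted p = 0.0941) and 0.74 ± 0.55 in Set7KO hearts (edgeR adjusted p = 0.684). The Set7KO value turned on single libraries, being -0.14 without Set7KO isoproterenol replicate 1 and 0.34 without Set7KO saline replicate 2. The WT value passed in DESeq2's Wald test (adjusted p = 0.00276), where 2683 of 17636 genes did. It also passed with no filter on low counts (edgeR adjusted p = 0.0183), where 1512 of 29066 genes did.

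Base composition moved with the WT value of Postn. Postn transcripts have 41.9% GC, and 6.91% of the genes tested have less. In the tenth of genes with the lowest GC the median log2 fold change to isoproterenol was -0.73 in Set7KO hearts and 1.34 in WT hearts, while in the tenth with the highest GC it was 0.23 in Set7KO and -0.65 in WT. With offsets for GC content and exonic length in each library, the Postn log2 fold change was 1.15 ± 0.66 in Set7KO hearts and 0.78 ± 0.65 in WT hearts. On that scale Postn had 19.3 and 8.48 CPM in Set7KO isoproterenol, against 10.0 and 2.81 CPM in Set7KO saline libraries, and 20.2 and 10.7 CPM in WT isoproterenol, against 6.26 and 11.8 CPM in WT saline libraries. Isoproterenol and saline then overlapped in WT too. The averaged value was 0.96 ± 0.46 with these offsets (edgeR adjusted p = 0.522). Set7KO saline replicate 2 had the same GC trend as the WT isoproterenol libraries. The median log2 deviation from gene means in the highest of 5 GC classes, minus that in the lowest, was -0.77 in that library, beside -0.90 and -0.64 in WT isoproterenol libraries, and Postn there was at 4.47 CPM without offsets, the lowest of all 8. The part of base composition in the WT value was not tested further.

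**Figure D2:**
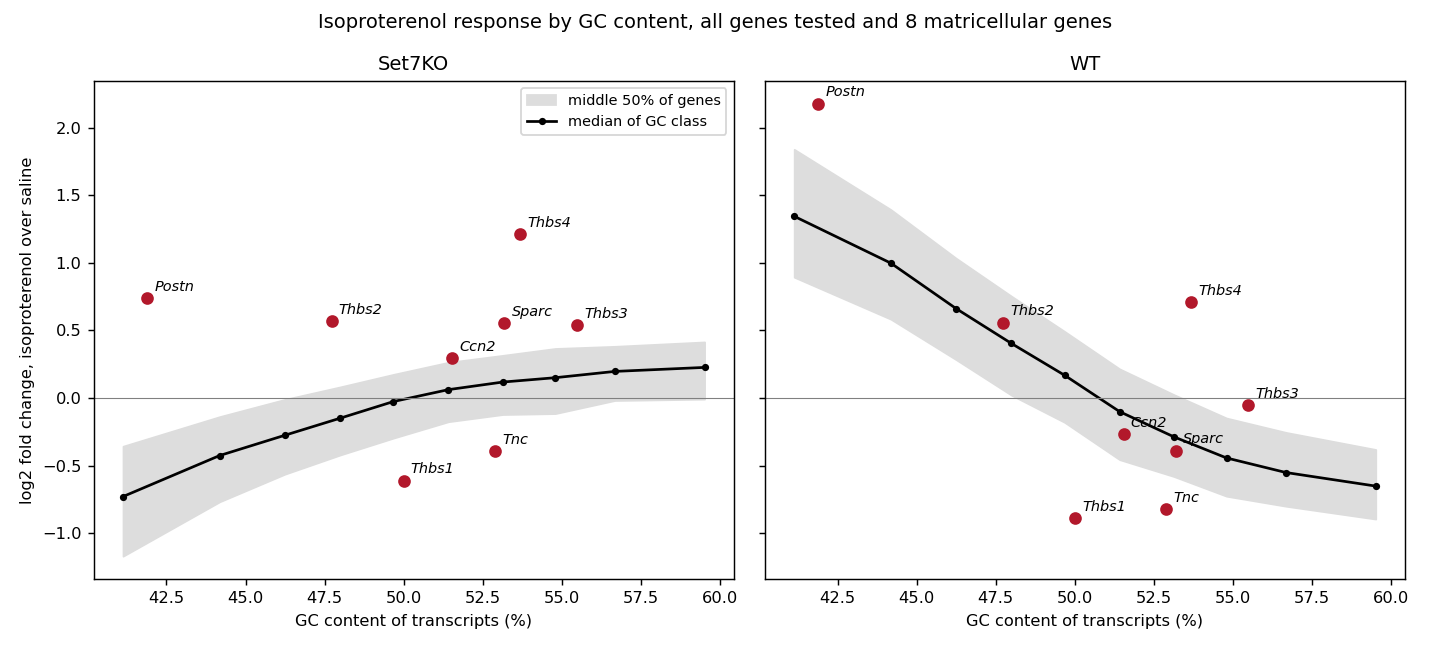
Log2 fold change, isoproterenol over saline (vertical axis), against the GC content of transcripts in percent (horizontal axis) in Set7KO hearts on the left and WT hearts on the right. The line joins the medians of 10 GC classes of all genes tested, the band holds the middle 50% of genes, and red points are the 8 matricellular genes above 1 CPM on average. Postn, at 41.9% GC, sits at 0.74 in Set7KO and 2.18 in WT, over class medians of -0.73 and 1.34. Postn, Thbs3 and Thbs4 lie above the band in both genotypes.

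Cthrc1 encodes a secreted protein of activated fibroblasts and injured arteries that modulates collagen deposition and Wnt signalling. The gene (ENSMUSG00000054196, chr15:39076932-39087121, plus strand) was sparsely covered. It had 15 and 7 counts in Set7KO isoproterenol, against 6 and 5 counts in Set7KO saline libraries, and 23 and 14 counts in WT isoproterenol, against 0 and 0 counts in WT saline libraries. These counts equal 0.452 and 0.256 CPM, against 0.195 and 0.0997 CPM in Set7KO, and 0.522 and 0.404 CPM, against 0 and 0 CPM, in WT. All isoproterenol libraries were above all saline libraries. WT hearts after isoproterenol were at least 4.38-fold higher than WT saline hearts, taking 3 counts per library as the floor that a count of 0 allows. In Set7KO hearts the log2 fold change was 1.31 ± 0.70 (edgeR adjusted p = 0.587), and 0.87 without Set7KO saline replicate 2. The averaged comparison had the smallest p of the 10 genes, 0.000811, with an edgeR adjusted p of 0.174. With Cthrc1 set to its bound, the median of the 10 genes stayed at 0.24.

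Thbs1 and Thbs2 are homologues that assemble as trimers. Thbs1 activates latent transforming growth factor beta and inhibits angiogenesis, and is also stored in platelets, whereas Thbs2 is known for its part in collagen fibril assembly and matrix integrity. Thbs1 (ENSMUSG00000040152, chr2:118111876-118127133, plus strand) had 6.90 and 3.81 CPM in Set7KO isoproterenol, against 11.6 and 4.80 CPM in Set7KO saline hearts. In WT hearts it had 4.65 and 5.80 CPM after isoproterenol, against 8.02 and 11.3 CPM after saline. The WT groups did not overlap and the Set7KO groups did. The averaged log2 fold change of Thbs1 was -0.75 ± 0.33 (edgeR adjusted p = 0.531), -0.83 ± 0.31 with GC and length offsets, -0.37 without Set7KO saline replicate 1 and -1.01 without replicate 2. Within Set7KO it was -0.61 ± 0.46, 0.16 without Set7KO saline replicate 1 and -1.11 without replicate 2. Summed platelet and megakaryocyte markers were at 21.2 to 37.6 CPM in Set7KO isoproterenol, against 28.4 to 36.9 CPM in Set7KO saline libraries, and 17.2 to 17.5 CPM in WT isoproterenol, against 29.0 to 31.6 CPM in WT saline libraries. Pf4 made up 65.9% of this sum, and the other 7 summed to 7.14 to 11.2 CPM in Set7KO isoproterenol, against 12.1 to 15.6 CPM in Set7KO saline libraries, and 6.35 to 7.07 CPM in WT isoproterenol, against 5.97 to 9.28 CPM in WT saline libraries. None of these 8 markers was at 0 in a whole group, and their part in the Thbs1 values was not tested.

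Thbs2 (ENSMUSG00000023885, chr17:14665500-14694235, minus strand) had fitted values of the opposite sign to those of Thbs1. It had 41.0 and 31.2 CPM in Set7KO isoproterenol, against 21.4 and 27.4 CPM in Set7KO saline hearts. In WT hearts it had 36.7 and 36.8 CPM after isoproterenol, against 26.5 and 23.4 CPM after saline. All isoproterenol libraries were above all saline libraries, by 36.4 ± 4.0 against 24.7 ± 2.78 CPM on average (SD, n = 4 each). The averaged log2 fold change was 0.56 ± 0.17, or 1.48-fold (edgeR adjusted p = 0.327), and it was 0.57 ± 0.23 in Set7KO and 0.56 ± 0.23 in WT. GC and length offsets split these values, to 0.75 ± 0.15 in Set7KO hearts and 0.04 ± 0.15 in WT hearts. On that scale WT hearts had 28.9 and 29.6 CPM after isoproterenol, against 30.6 and 26.5 CPM after saline, which overlap. Without Set7KO saline replicate 2 the log2 fold change was 0.76 in Set7KO and 0.65 averaged. The interaction of genotype and isoproterenol for Thbs2 was 0.01 ± 0.33 without offsets and 0.72 ± 0.21 with them (edgeR adjusted p = 0.286).

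Thbs3 and Thbs4 assemble as pentamers. Thbs4 is known in the heart as a gene that responds to pressure load and as a chaperone-like protein of the endoplasmic reticulum stress response, and Thbs3 is known to act on integrin levels at the muscle cell surface in mice. Thbs4 (ENSMUSG00000021702, chr13:92751590-92794818, minus strand) had 20.8 and 11.5 CPM in Set7KO isoproterenol, against 5.66 and 8.25 CPM in Set7KO saline hearts. In WT hearts it had 10.4 and 10.2 CPM after isoproterenol, against 5.90 and 6.73 CPM after saline. The 4 isoproterenol hearts were above the 4 saline hearts, and Set7KO isoproterenol replicate 1 was the highest. Thbs4 averaged 13.2 ± 5.05 CPM after isoproterenol and 6.63 ± 1.17 CPM after saline (SD, n = 4 each). The averaged log2 fold change was 0.96 ± 0.24, or 1.94-fold (edgeR adjusted p = 0.241). It was 1.21 ± 0.34 in Set7KO hearts (edgeR adjusted p = 0.465) and 0.71 ± 0.34 in WT hearts (edgeR adjusted p = 0.182). The Set7KO value was 0.72 without isoproterenol replicate 1, the highest library, and 1.58 without isoproterenol replicate 2, and it was 0.97 or 1.52 without saline replicate 1 or 2. Under GC and length offsets the values were 1.10 ± 0.37 in Set7KO and 1.01 ± 0.37 in WT, and the isoproterenol libraries were still above the saline libraries. Its averaged log2 fold change lay between 0.71 and 1.14 over all 14 alternatives run, and it passed in 1 of them, DESeq2's Wald test (adjusted p = 0.0265).

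Thbs3 (ENSMUSG00000028047, chr3:89215180-89226837, plus strand) had 11.3 and 16.5 CPM in Set7KO isoproterenol, against 12.9 and 6.28 CPM in Set7KO saline hearts, and 11.0 and 10.6 CPM in WT isoproterenol, against 12.1 and 10.3 CPM in WT saline hearts. Both genotypes overlapped between treatments. The averaged log2 fold change was 0.24 ± 0.26 (edgeR adjusted p = 0.747). In Set7KO it was 0.54 ± 0.36, with 1.14 without Set7KO saline replicate 1 (edgeR adjusted p = 0.0852) and 0.11 without replicate 2. Thbs3 lies inside the span of Mtx1, a gene of the opposite strand. The sources used here do not say whether the counting used strand, so reads of the 2 genes may not be told apart. The same holds where Thbs1, Tnc and Ccn2 overlap non-coding transcripts of the opposite strand.

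Within the thrombospondin family, the share of Thbs1 was lower in every isoproterenol library than in every saline library. None of the 4 genes passed in the averaged comparison by edgeR's test. The 4 genes together had 15.6 and 12.0 CPM per kilobase in Set7KO isoproterenol, against 9.35 and 8.51 CPM per kilobase in Set7KO saline hearts, and 11.4 and 11.5 CPM per kilobase in WT isoproterenol, against 9.41 and 9.40 CPM per kilobase in WT saline hearts. Thbs1 made up 7.27% and 5.22% of this sum in Set7KO isoproterenol, against 20.5% and 9.30% in Set7KO saline hearts. In WT hearts its share was 6.70% and 8.29% after isoproterenol, against 14.0% and 19.9% after saline. The level of Thbs2 per kilobase was 5.15 and 7.11 times that of Thbs1 in Set7KO isoproterenol, against 1.59 and 4.94 times in Set7KO saline hearts, and 6.84 and 5.50 times in WT isoproterenol, against 2.86 and 1.79 times in WT saline hearts. Every isoproterenol library had a higher ratio of Thbs2 to Thbs1 than every saline library, narrowly so in Set7KO saline replicate 2. The ratio was chosen after the values of its 2 genes were seen and is a description, with no test.

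**Figure D3:**
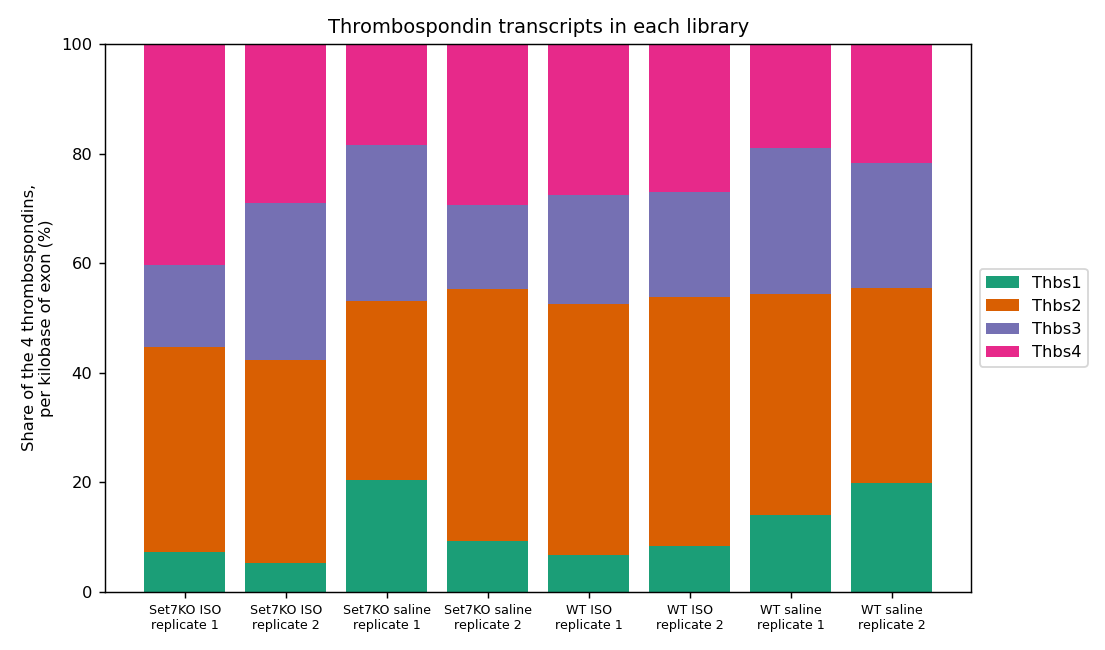
Share in percent (vertical axis) of Thbs1, Thbs2, Thbs3 and Thbs4 in their summed level per kilobase of exon, 1 bar per library. The Thbs1 block is 5.22% to 8.29% in the 4 isoproterenol libraries and 9.30% to 20.5% in the 4 saline libraries.

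Tenascin C, a large glycoprotein of embryonic and wounded tissue, and osteopontin, an integrin-binding phosphoprotein made by macrophages and fibroblasts, were sparse. Tnc (ENSMUSG00000028364, chr4:63959785-64047015, minus strand) had 1.57 and 0.842 CPM in Set7KO isoproterenol, against 2.67 and 0.578 CPM in Set7KO saline hearts, and 1.45 and 0.722 CPM in WT isoproterenol, against 1.38 and 2.49 CPM in WT saline hearts. Replicates of 1 group differed as much as the groups did. Its averaged log2 fold change was -0.61 ± 0.51 (edgeR adjusted p = 0.696), and 0.12 without Set7KO saline replicate 1 or -0.98 without replicate 2. Spp1 (ENSMUSG00000029304, chr5:104435118-104441050, plus strand) had 8 and 1 counts in Set7KO isoproterenol, against 6 and 17 counts in Set7KO saline libraries, and 14 and 12 counts in WT isoproterenol, against 5 and 2 counts in WT saline libraries. At this depth no difference in Spp1 was detectable (averaged log2 fold change 0.24 ± 0.61, edgeR adjusted p = 0.898). The average joins opposite signs, 1.39 ± 0.87 in WT and -0.90 ± 0.85 in Set7KO. The interaction of Spp1 was -2.29 ± 1.22 (edgeR adjusted p = 0.224). The summed macrophage markers were 463 to 663 CPM in Set7KO isoproterenol, against 481 to 623 CPM in Set7KO saline libraries, and 325 to 391 CPM in WT isoproterenol, against 522 to 670 CPM in WT saline libraries, and their part in the Spp1 counts was not tested.

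Sparc (ENSMUSG00000018593, chr11:55394500-55423183, minus strand) had 613.9 and 544.5 CPM in Set7KO isoproterenol, against 577.1 and 212.2 CPM in Set7KO saline hearts, and 455.0 and 372.4 CPM in WT isoproterenol, against 504.6 and 579.6 CPM in WT saline hearts. Within WT both isoproterenol hearts were below both saline hearts, and within Set7KO the groups overlapped. The averaged log2 fold change was 0.08 ± 0.28 (edgeR adjusted p = 0.929), with 0.55 ± 0.40 in Set7KO and -0.39 ± 0.40 in WT. The Set7KO value turned on which saline library was kept. Without Set7KO saline replicate 1 it was 1.45, and without replicate 2 it was 0.01. The summed level of 12 fibroblast markers was lowest in that replicate 2 as well, at 1965 CPM, against 3454 to 6356 CPM in the other 7 libraries. Per 1000 CPM of these markers, Sparc was at 108 CPM in that library and between 85.7 and 132 CPM in the others. Gsn carried most of that sum, and per 1000 CPM of the other 11 markers Sparc was at 293 CPM in that library, the lowest, and between 307 and 473 CPM in the others. In bulk tissue, fewer cells of a type and less RNA per cell cannot be told apart.

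Ccn2 (ENSMUSG00000019997, chr10:24595442-24598683, plus strand) had 49.9 and 50.3 CPM in Set7KO isoproterenol, against 41.2 and 40.5 CPM in Set7KO saline hearts, and 55.1 and 66.2 CPM in WT isoproterenol, against 90.1 and 56.2 CPM in WT saline hearts. Its averaged log2 fold change to isoproterenol was 0.01 ± 0.18 (edgeR adjusted p = 0.987), with 0.30 ± 0.26 in Set7KO and -0.27 ± 0.26 in WT. The interaction was 0.57 ± 0.36 (edgeR adjusted p = 0.3), 0.58 without Set7KO saline replicate 2 and 0.19 without WT saline replicate 1. Every Set7KO library was below every WT library. The share of all genes separated in this way was not counted, and Ccn2 passed in neither genotype comparison.

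**Figure D4:**
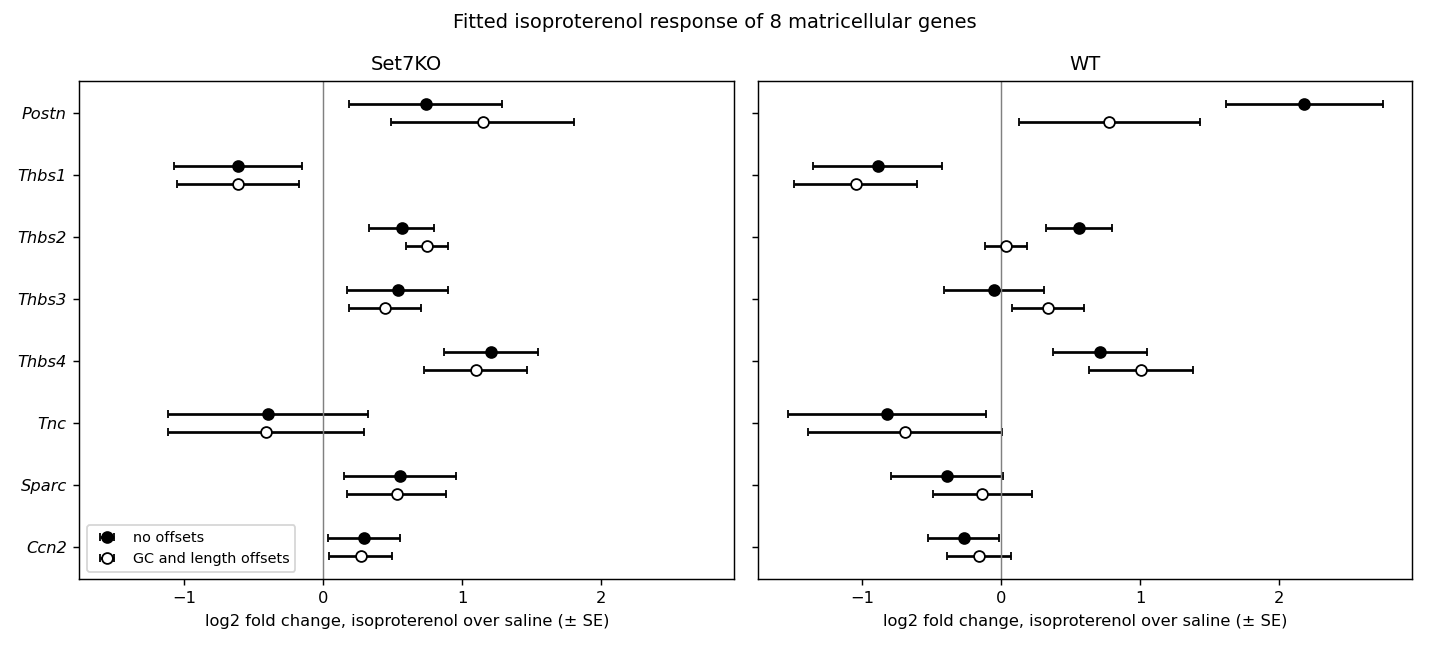
Fitted log2 fold change, isoproterenol over saline (horizontal axis), with SE bars, for 8 matricellular genes in Set7KO hearts on the left and WT hearts on the right. Filled points are the fit without offsets and open points the fit with GC and length offsets, which sets Postn at 0.78 and Thbs2 at 0.04 in WT, while Thbs4 is at 1.10 in Set7KO and 1.01 in WT.

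Between genotypes, 0 of the 10 genes passed after isoproterenol and 0 after saline, where 0.00567% of all genes, 1 gene, did in each comparison. After isoproterenol, 0 of the 10 were higher and 1, Postn, was lower in Set7KO than in WT before adjustment, against 7.22% higher and 12.7% lower among all genes. The Postn log2 fold change was -1.27 ± 0.55 (edgeR adjusted p = 0.247), both Set7KO hearts being below both WT hearts. It was -2.11 without Set7KO isoproterenol replicate 1 and -0.73 without replicate 2, neither passing. With GC and length offsets it was -0.15 ± 0.64, and the libraries overlapped. Thbs4 was at 0.64 ± 0.33 in the same comparison (edgeR adjusted p = 0.29), again with no overlap between the genotypes. The share of all genes without overlap in this comparison was not counted. With offsets Thbs4 was at 0.42 ± 0.37, and the libraries overlapped. Its value was 0.20 without Set7KO isoproterenol replicate 1 and 1.01 without replicate 2. The median of the 10 genes was 0.01, beside -0.05 for all genes.

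After saline, 1 gene, Cthrc1, was higher and 1, Ccn2, was lower in Set7KO before adjustment, against 7.83% and 2.46% of all genes. Ccn2 had a log2 fold change of -0.84 ± 0.26 (edgeR adjusted p = 0.483), -0.80 ± 0.23 with GC and length offsets and -0.81 without Set7KO saline replicate 2. Over the 14 alternatives it ran between -1.13 and -0.47. Its Set7KO saline hearts, at 41.2 and 40.5 CPM, differed little from each other, including the library that stands apart. Its WT saline hearts lay further apart, at 90.1 and 56.2 CPM. Cthrc1 was at least 1.39-fold higher in Set7KO saline hearts, with 11 counts in all, than in WT saline hearts, with 0 counts (edgeR adjusted p = 0.483). The bound was 1.84-fold without Set7KO saline replicate 2, and there is none without replicate 1, since the 0.0997 CPM of replicate 2 lies within the floors of the WT saline libraries, 0.0994 and 0.112 CPM. Sparc was at -0.46 ± 0.40 with both saline libraries, 0.11 without Set7KO saline replicate 2 and -1.35 without replicate 1. The median of the 10 genes was -0.13, beside 0.02 for all genes.

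The interaction asks whether the response to isoproterenol differs between Set7KO and WT. By the adjusted p, 0 of the 10 genes and 0% of all genes passed. Before adjustment 0 were higher and 1, Cthrc1, was lower, against 12% and 18.6% of all genes. The interaction of Postn was -1.44 ± 0.77 (edgeR adjusted p = 0.228), and 0.37 ± 0.92 with GC and length offsets, where the sign turned. It was -2.31 without Set7KO isoproterenol replicate 1, -0.89 without isoproterenol replicate 2, -0.88 without Set7KO saline replicate 1 and -1.83 without saline replicate 2. For Cthrc1 the edgeR adjusted p was 0.101, and its fitted size rests on the 0 counts of WT saline hearts. It passed the filter on low counts only through its isoproterenol libraries, which partly set its place in this count. Sparc was at 0.94 ± 0.57, and at 1.84 without Set7KO saline replicate 1, beside 0.41 at the other end of the leave-one-out range. The median of the 10 genes was 0.35, beside -0.05 for all genes.

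The 10 genes did not share 1 pattern over the libraries. Likeness was measured as the root mean square difference of log2 CPM, each gene centred on its own mean, over the 8 libraries. An offset of 0.5 CPM was added before taking the log. The nearest pairs were Cthrc1 with Thbs2 at 0.23, Thbs3 with Sparc at 0.28 and Thbs2 with Spp1 at 0.30. The offset flattens Cthrc1 and Spp1, whose highest levels were 0.522 and 0.346 CPM, so their distances to other genes are partly set by it. Postn lay apart from all others, its nearest being Cthrc1 at 0.65. Among 9274 genes of at least 5 CPM, those nearest to Postn were Mal at 0.45, Plekhh1 at 0.49, mt-Tl2 at 0.50, Ednrb at 0.50 and Lum at 0.54. In that order their transcripts have 49.8%, 52.2%, 31.0%, 44.1% and 41.9% GC, beside 41.9% for Postn. The levels compared had no GC and length offsets, and the part of base composition in this likeness was not tested. Those nearest to Thbs4 were Rasd2 at 0.17, Hbegf at 0.24, Perp at 0.25, Mov10l1 at 0.25 and St3gal4 at 0.26. Among the 8 genes above 1 CPM on average Postn had the widest spread, with 7.96 times between its highest and lowest library, against 4.61 times for Tnc, 3.67 times for Thbs4 and 1.92 times for Thbs2.

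Other matricellular genes and relatives were measured too, and 17 of 24 were tested. In the averaged isoproterenol comparison 0 passed, with 3 higher and 1 lower at p under 0.05 before adjustment, beside 4.5% and 4.9% of all genes, 0.051% having passed after it. Ccn5, a relative of Ccn2 that lacks its C-terminal domain and opposes it in the mouse heart, had the smallest p, with a log2 fold change of 1.48 ± 0.30 (edgeR adjusted p = 0.186), followed by Fstl1 at 0.58 ± 0.21 (edgeR adjusted p = 0.42) and the Sparc homologue Sparcl1 at 0.48 ± 0.18 (edgeR adjusted p = 0.456). Of 28 receptors of matricellular proteins 27 were tested and 0 passed, with 3 higher and 1 lower unadjusted, beside the same 4.5% and 4.9%. Calr, calreticulin, a partner of thrombospondin at the cell surface, was at -0.86 ± 0.17 (edgeR adjusted p = 0.186), and the integrin chains Itga8 and Itga1 were at 1.37 ± 0.29 (edgeR adjusted p = 0.19) and 0.60 ± 0.16 (edgeR adjusted p = 0.276). With GC and length offsets Calr was at -0.86, Itga8 at 1.08 and Itga1 at 0.23. Of 28 genes of transforming growth factor beta, Yap and serum response factor signalling all were tested and 0 passed, with 1 higher and 1 lower unadjusted, Srf being at -0.59 ± 0.17 (edgeR adjusted p = 0.321), with Smad2 at 0.53 ± 0.27 and Tgfbr2 at 0.28 ± 0.14. With the offsets Srf was at -0.39, Smad2 at 0.32 and Tgfbr2 at 0.24.

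Markers of the cells around and behind these genes were summed in each library. The sum of 12 fibroblast markers was 5027 to 6356 CPM in Set7KO isoproterenol, against 1965 to 4392 CPM in Set7KO saline libraries, and 3454 to 3871 CPM in WT isoproterenol, against 3901 to 4701 CPM in WT saline libraries. Gsn, gelsolin, which other cell types also express, made up 69.5% of it. Without Gsn the other 11 summed to 1433 to 1671 CPM in Set7KO isoproterenol, against 724 to 1397 CPM in Set7KO saline libraries, and 1213 to 1425 CPM in WT isoproterenol, against 1067 to 1326 CPM in WT saline libraries, so the WT groups overlapped. In the averaged comparison 4 of the 12 were higher and 0 lower before adjustment, against 4.5% and 4.9% of all genes, and Lum had the smallest p, at 1.47 ± 0.32 (edgeR adjusted p = 0.193).

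Postn and Thbs4 were also set against the 11 fibroblast markers other than Gsn. Per 1000 CPM of these, Postn was at 9.48 and 4.16 CPM in Set7KO isoproterenol, against 6.21 and 6.17 CPM in Set7KO saline libraries, and at 24.9 and 14.3 CPM in WT isoproterenol, against 4.44 and 5.22 CPM in WT saline libraries. Both WT isoproterenol hearts were above both WT saline hearts, and the Set7KO hearts overlapped, as they also did with Gsn in the sum. Thbs4 was at 12.4 and 8.02 CPM in Set7KO isoproterenol, against 4.05 and 11.4 CPM in Set7KO saline libraries, and at 7.29 and 8.45 CPM in WT isoproterenol, against 5.53 and 5.07 CPM in WT saline libraries. Its Set7KO groups overlapped on this scale and its WT groups did not, again also with Gsn in the sum. These ratios were chosen after the levels were seen, and the sum without Gsn after the ratios. They use levels without GC and length offsets, and with those offsets the Postn levels of the WT treatments overlapped.

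The smooth muscle and pericyte sum was 4952 to 5119 CPM in Set7KO isoproterenol, against 3561 to 4172 CPM in Set7KO saline libraries, and 3589 to 3727 CPM in WT isoproterenol, against 4844 to 5157 CPM in WT saline libraries. Des, desmin, which heart muscle cells also express, made up 80.7% of it. Without Des the other 9 summed to 947 to 967 CPM in Set7KO isoproterenol, against 563 to 857 CPM in Set7KO saline libraries, and 805 to 851 CPM in WT isoproterenol, against 843 to 961 CPM in WT saline libraries. Endothelial markers summed to 1849 to 2002 CPM in Set7KO isoproterenol, against 1302 to 2027 CPM in Set7KO saline libraries, and 1527 to 1574 CPM in WT isoproterenol, against 1631 to 2170 CPM in WT saline libraries.

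Valve and tendon cells are also known to make Thbs4 and Postn. Their markers summed to 17.1 to 24.5 CPM in Set7KO isoproterenol, against 9.05 to 17.0 CPM in Set7KO saline libraries, and 22.4 to 27.0 CPM in WT isoproterenol, against 20.0 to 24.3 CPM in WT saline libraries. Prg4, lubricin, made up 44.8% of this sum and had an averaged log2 fold change of 1.51 ± 0.31 (edgeR adjusted p = 0.186), and Tnmd and Kera were at 0 in all 8 libraries. Without Prg4 the sum was 8.42 to 9.46 CPM in Set7KO isoproterenol, against 3.51 to 13.1 CPM in Set7KO saline libraries, and 6.54 to 13 CPM in WT isoproterenol, against 15.5 to 19.5 CPM in WT saline libraries. Erythroid markers, a sign of blood in the tissue, summed to 2681 to 4351 CPM in Set7KO isoproterenol, against 4232 to 10521 CPM in Set7KO saline libraries, and 1254 to 1519 CPM in WT isoproterenol, against 3768 to 4261 CPM in WT saline libraries. Of 6 erythroid markers tested 0 were higher and 5 lower before adjustment in the averaged comparison, against 4.5% and 4.9% of all genes. After adjustment 0 passed, and their median log2 fold change was -1.27, beside 0.02 for all genes. The part of these cell types in the values of the matricellular genes was not tested.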

How the data were processed

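RNA of hearts was profiled in 8 libraries, 2 per group, with a TruSeq stranded mRNA kit and single reads of 75 cycles on an Illumina NextSeq instrument, per the labels' protocols. The authors deposited whole-number counts per gene, and GRCm38, HISAT, HISAT2, StringTie and edgeR are named in the submitters' processing notes, with versions and roles not given in the sources used here. Of 55487 identifiers, 29066 had a count, and GENCODE M21 for GRCm38 named 55227.

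The counts were fitted with edgeR 4.0.16 in R 4.3.3 with 1 mean per group, after TMM scaling and a filter by filterByExpr that left 17636 genes. Each of 6 comparisons was tested by a two-sided quasi-likelihood F-test, with p-values adjusted over all genes tested (Benjamini-Hochberg) and a threshold of 0.05. A standard error is the log2 fold change over the root of F. The 2 libraries per group leave 4 residual degrees of freedom, and the biological coefficient of variation came to 28.4%. CPM use TMM library sizes, levels per kilobase use the union of exons, and 3 counts, taken as the floor, equal 0.0598 to 0.112 CPM. Such limits cover counting error only. GC content is that of each gene's GENCODE transcripts. The scripts were tested on simulated data.

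The alternatives were DESeq2 1.42.0 size factors, no filter, a filter of 1 CPM in 2 libraries, DESeq2's Wald test, limma-voom (limma 3.58.1), offsets for GC content and exonic length (splines with 5 degrees of freedom) and leaving out each library. Replicates were numbered in accession order and pair nothing. The 10 genes and the other lists were chosen with earlier results of these data known. The 10 genes are named throughout. From other lists the rule names genes past the threshold, otherwise the 3 with the smallest p in the averaged comparison at a mean of at least 1 CPM, and here only the lists closest to the 10 genes are named that way. For Postn and Thbs4 it adds the 5 nearest genes by pattern at a mean of at least 5 CPM. Promoter sequences are RefSeq's for GRCm38.p6.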

Additional observations from a re-analysis of the deposited data

Results flagged for a closer look

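Among 20 groups of 4 libraries looked at, of which chance marks about 1 in 20, a pair held a library far from the others. Thbs4 was at 20.8 CPM in Set7KO isoproterenol replicate 1, while the other 3 isoproterenol libraries held 10.2 to 11.5 CPM. Thbs3 was at 16.5 CPM in Set7KO isoproterenol replicate 2, while the other 3 held 10.6 to 11.3 CPM. The 2 values come from different libraries of the same group.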

How the results depend on the processing

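No gene of the 10 passed in any of the 6 comparisons with all libraries, the filterByExpr filter and edgeR's test. In the averaged isoproterenol comparison 2 of the 10 passed with no filter (Postn and Cthrc1) and 2 with DESeq2 (Postn and Thbs4). In WT 2 passed with no filter, 1 (Postn) with DESeq2, and 0 to 2 on leaving out 1 library at a time, 2 without either Set7KO saline library. Sparc moved without Set7KO saline replicate 1, a fit that leaves 1 library in its group. It was at 1.45 for isoproterenol in Set7KO, -1.35 for Set7KO against WT after saline and 1.84 for the interaction. Across the whole table, genes called numbered 9 in the averaged comparison, 159 with no filter and 251 with DESeq2, and 0 in WT, 1512 with no filter, 2683 with DESeq2 and 3676 or 3765 without Set7KO saline replicate 1 or 2. Signs turned for Ccn2 in the averaged comparison, at 0 with DESeq2's size factors and 0 with its test, for Thbs3 in WT at 0.34 and Postn in the interaction at 0.37 with GC and length offsets, for Tnc in Set7KO at 0.03 with limma-voom, and for Thbs2 in the interaction at -0.04 with no filter and -0.03 with the filter of 1 CPM. With 1 library left out, averaged log2 fold changes ran between -0.98 and 0.12 for Tnc, -0.71 and 0.68 for Spp1, -0.2 and 0.53 for Sparc and -0.16 and 0.2 for Ccn2. In Set7KO they ran between -0.14 and 1.29 for Postn, -1.11 and 0.16 for Thbs1 and -1.13 and 1.06 for Tnc, and in WT between -0.2 and 0.06 for Thbs3 and -0.61 and 0.1 for Ccn2. Sparc in Set7KO against WT after saline ran between -1.35 and 0.11, and Thbs2 in the interaction between -0.19 and 0.22. The cause was not tested. A group left with 1 library is assumed to vary like the others. Cthrc1 and Spp1 have no value under the filter of 1 CPM. Of the values of single genes, 514 kept direction and side of the threshold, 24 reversed and 14 passed where they had not. Genes without overlap between treatments numbered 3 in all, 2 with offsets and 4 without Set7KO isoproterenol replicate 2, alternatives chosen after seeing the data. Depth limits Spp1, Cthrc1 and Tnc. No paired analysis was possible because the labels give no replicate numbers that tie libraries across groups.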
